A study of Mus musculus with 8 samples.

Results

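Chemokines are small secreted or membrane-tethered proteins that direct the migration of leukocytes and other cells through G protein-coupled receptors. The 10 chemokine genes described here are Cxcl12, Cxcl14, Cxcl16, Cxcl1, Cx3cl1, Ccl2, Ccl6, Ccl7, Ccl8 and Ccl9, out of 18193 genes with a probe set of their own. They were chosen by symbol and were read by the 21 probe sets annotated to exactly 1 gene symbol that is 1 of these, out of 34945 probe sets with 1 gene symbol. They were measured in heart ventricles of male mice of the inbred FVB strain, 8 to 12 weeks old, 1 week after banding of the ascending aorta, in which a constriction close to the heart makes the left ventricle work against a raised pressure. The arrays labelled TG (TG_1 to TG_4) came from mice with a CHF1/Hey2 transgene expressed in heart muscle from the mlc2v promoter, and those labelled WT (WT_1 to WT_4) from wild-type mice. CHF1/Hey2 belongs to the hairy-related repressors of transcription. All 8 mice were banded, and since unbanded hearts were not analysed here, these values say nothing of the response to banding itself. Each mouse gave 1 Affymetrix Mouse Genome 430 2.0 array, and the authors deposited log2 expression values.

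The family is divided by the spacing of the first cysteines of the protein into CXC, CX3C and CC chemokines. In the pressure-loaded heart, CC chemokines such as Ccl2 are known for recruiting blood monocytes, Cxcl1 for neutrophils, and Cxcl12 for acting on stromal, vascular and progenitor cells as well as leukocytes. In the mouse genome Ccl2 and Ccl7 are direct neighbours, with Ccl11, Ccl12 and Ccl8 following in the same cluster, and Ccl9 and Ccl6 lie in a second cluster on the same chromosome, with 1 annotated gene between them.

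RefSeq promoter windows (build GRCm38.p6, the 250 bases before the annotated start) were matched for 7 of the 10 genes, that is for Cxcl12, Cxcl14, Cxcl1, Cx3cl1, Ccl6, Ccl8 and Ccl9. Cxcl16, Ccl2 and Ccl7 are named only. Hey repressors are known to bind E boxes of class B (CACGTG) and class C (CACGCG), and NF-kB, a factor that induces many chemokines, binds kappa B motifs, searched here as GGG, any 2 bases and TTTCC. Windows are shown for the 2 genes with a probe set at an unadjusted limma p under 0.05 between the groups, Cxcl12 and Cxcl14. Neither passed after adjustment, and the probe set of Cxcl14 was tested largely because its TG values were high. Windows are also shown for the 2 genes with a kappa B match, Cxcl1 and Ccl9. Each runs 5′ to 3′ on the strand of its gene, and capitals mark matches on either strand to these motifs or to the TATA box TATAAA. They lie at chr6:117168285-117168534 (plus strand), chr13:56296552-56296801 (minus strand), chr5:90890995-90891244 (plus strand) and chr11:83578637-83578886 (minus strand).
Cxcl12: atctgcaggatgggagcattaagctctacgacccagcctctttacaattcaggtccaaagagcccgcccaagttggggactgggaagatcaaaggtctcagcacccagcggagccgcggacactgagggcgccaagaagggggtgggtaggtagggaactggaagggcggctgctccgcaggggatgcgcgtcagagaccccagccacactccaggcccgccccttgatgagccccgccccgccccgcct
Cxcl14: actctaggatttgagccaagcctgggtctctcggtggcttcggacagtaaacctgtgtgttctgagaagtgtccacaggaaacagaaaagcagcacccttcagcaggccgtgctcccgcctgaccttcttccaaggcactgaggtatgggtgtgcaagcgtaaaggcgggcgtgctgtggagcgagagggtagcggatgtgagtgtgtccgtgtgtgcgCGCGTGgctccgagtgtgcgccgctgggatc
Cxcl1: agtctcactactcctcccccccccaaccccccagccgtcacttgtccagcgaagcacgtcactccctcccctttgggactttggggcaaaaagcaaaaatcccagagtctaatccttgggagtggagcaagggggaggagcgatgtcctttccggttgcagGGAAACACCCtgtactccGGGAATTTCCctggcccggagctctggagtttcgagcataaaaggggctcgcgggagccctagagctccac
Ccl9: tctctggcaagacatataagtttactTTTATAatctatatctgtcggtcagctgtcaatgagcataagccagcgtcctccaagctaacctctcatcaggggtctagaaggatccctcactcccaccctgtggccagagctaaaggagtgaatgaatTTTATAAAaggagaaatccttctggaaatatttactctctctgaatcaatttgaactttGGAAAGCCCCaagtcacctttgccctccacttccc
The class C E box was found in the window of Cxcl14 alone among the 7 genes, on the strand opposite to the gene, and in 7.62% of 32851 RefSeq windows of this length. The class B E box was found in none of the 7, against 6.02% of all windows. The kappa B letters were found in Cxcl1, at 2 places, and in Ccl9, against 1.41% of all windows. TATAAA was found in Cx3cl1, Ccl8 and Ccl9, against 12.4% of all windows, and in Ccl9 a match on each strand overlapped. A match is only a run of letters, and these windows leave out distal enhancers.

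Arrays TG_2 and TG_3 stood apart from the other 6, which bears on every value below. Of 16017 probe sets tested, 39.5% in TG_2 and 8.76% in TG_3 were over 2-fold away from the median of the 7 others, against 0.893% to 2.68% in each of the remaining 6. The 7 listed heart muscle genes were measured in every array. Their mean log2 value was 15.23, 14.71, 15.22 and 15.17 in TG_1 to TG_4, against 15.11 to 15.18 in WT. TG_2 was lowest for 5 of the 7, against 34.3% of all tested probe sets. Myh6, a myosin heavy chain of heart muscle, was at 15.80 to 16.11 in arrays labelled TG and 15.98 to 16.10 in WT. Pln, another of the 7, was 13.22 in TG_2. The log2 difference between the 3′ and 5′ control probe sets of Gapdh, a measure of RNA integrity, was -0.27 to -0.19 in TG and -0.28 to -0.11 in WT. That of beta-actin was 0.62 to 1.13 in TG, with the lowest value in TG_2, and 0.78 to 1.21 in WT. Hey2 itself averaged 5.96 ± 0.24 in arrays labelled TG and 6.07 ± 0.47 in WT (SD, n = 4 each), so its only probe set did not separate the groups. It is unknown whether transcripts of the transgene hybridise to it, and the groups are named by their labels.

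Of the 21 chemokine probe sets, 15 exceeded a log2 value of 5 in all 8 arrays, 16 exceeded it in at least the 4 arrays needed for testing, and 4 stayed below it in every array. The genes above this level in all arrays were Cxcl12, Cxcl14, Cxcl16, Cxcl1, Cx3cl1, Ccl2, Ccl6, Ccl8 and Ccl9. Ccl7, a ligand of the monocyte receptor Ccr2, was below it throughout. Its probe set 1421228_at gave 3.25, 3.34, 3.26 and 3.57 in TG_1 to TG_4, against 2.70, 3.62, 2.94 and 3.18 in WT_1 to WT_4. These values overlap and lie near the level of probe sets without signal, so no difference was tested for Ccl7.

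**Figure D1:**
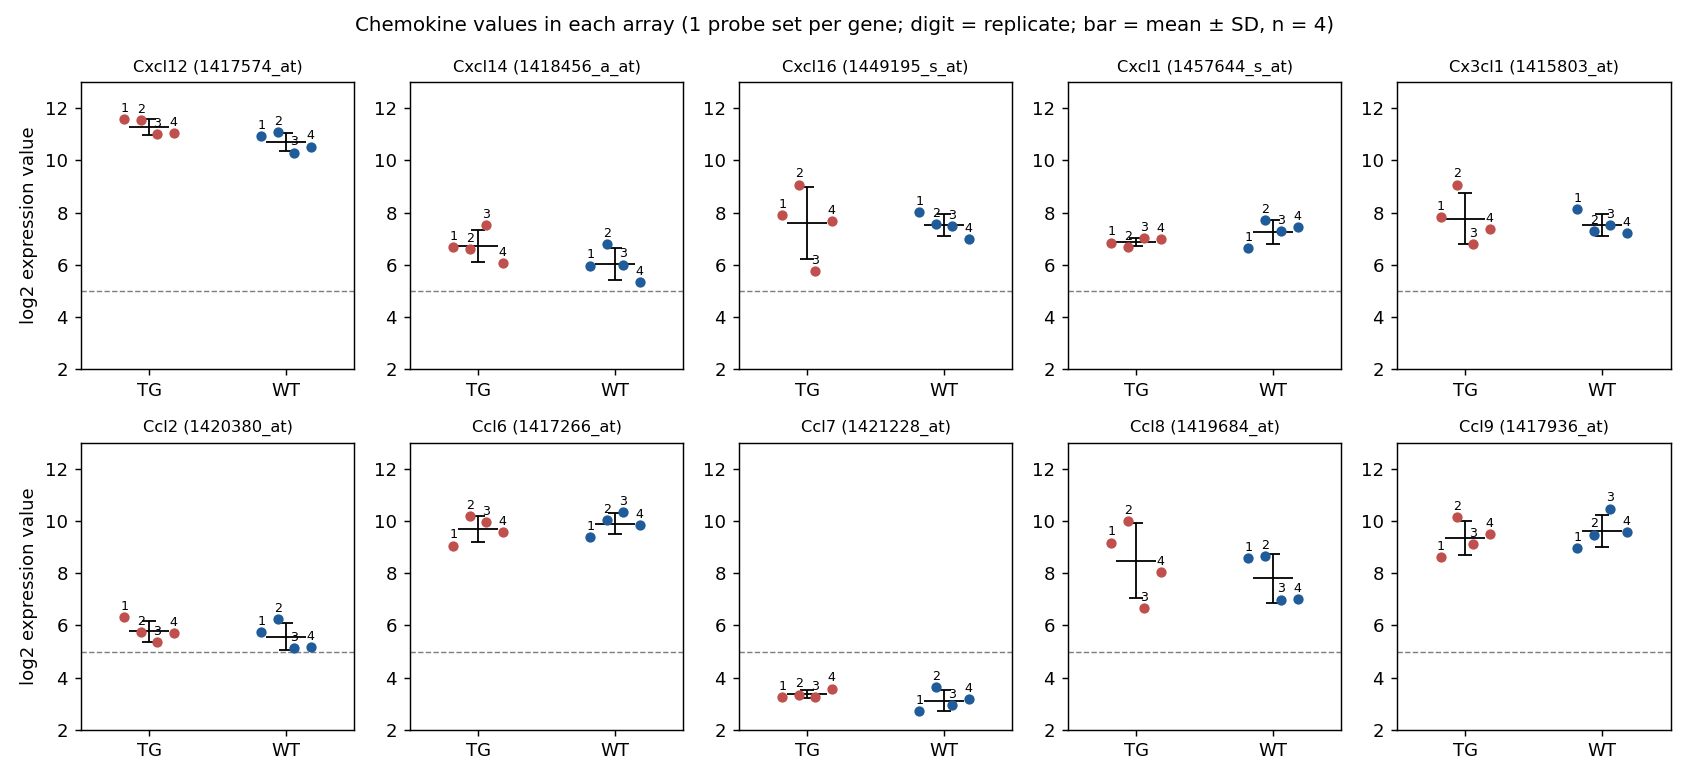
Log2 expression values of 1 probe set for each of the 10 chemokine genes, with the 4 arrays labelled TG on the left and the 4 WT arrays on the right of each panel. Points are arrays with their replicate number, bars are the mean ± SD (n = 4), and the dashed line is the log2 level of 5, below which all 8 values of Ccl7 lie.

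No chemokine probe set passed the test between the groups. With limma and Benjamini-Hochberg adjustment at 0.05, 0 of 16 tested chemokine probe sets and 0 of 16017 in all (0%) were called, and the smallest adjusted p was 0.830 among the members and in the whole table. Before adjustment, 2 member probe sets had a limma p under 0.05, 1 of Cxcl12 and 1 of Cxcl14, both with a higher mean in TG, against 206 in all (1.29%). That of Cxcl14 exceeded log2 5 in 3 TG arrays and 1 WT array, so it was tested largely because its TG values were high. For none of the 16 did the values of the 2 groups stay apart, which they did for 2.11% of all tested probe sets. The TG mean was higher for 11 and lower for 5 of the 16, against 53.5% higher and 46.5% lower over all tested. The median TG minus WT difference was 0.21 on the log2 scale over the 16 and 0.03 over all. Without TG_2 the members' median was 0.02, without TG_3 it was 0.42, and without WT_3 or WT_4 it was 0.13 or 0.09.

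**Figure D2:**
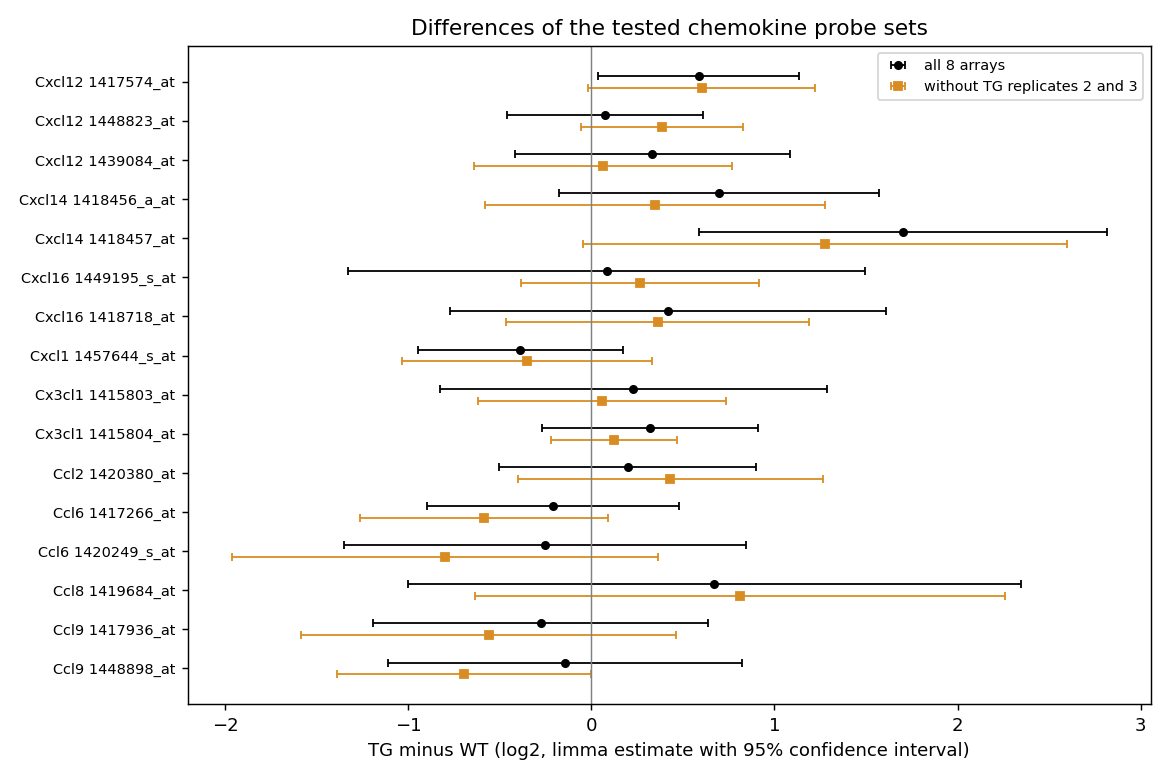
TG minus WT differences of the 16 tested chemokine probe sets on the log2 scale, with 95% confidence intervals from limma. Black circles use all 8 arrays and orange squares leave out TG replicates 2 and 3. The intervals of 1 Cxcl12 and 1 Cxcl14 probe set lie above 0 with all arrays, and none of the 16 passed after adjustment. That Cxcl14 probe set was tested largely because its TG values were high. Without TG replicates 2 and 3 both intervals include 0, and only that of Ccl9 1448898_at lies off 0, below it.

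The homeostatic CXC chemokines Cxcl12 and Cxcl14 each had 1 probe set at an unadjusted p under 0.05, higher in TG, and neither passed after adjustment. That of Cxcl14 was tested largely because its TG values were high. The other probe sets had an unadjusted limma p of 0.754 and 0.340 for Cxcl12 and 0.104 for Cxcl14. Cxcl12, the ligand of Cxcr4 and of the scavenging receptor Ackr3, was read by 3 probe sets. The brightest, 1417574_at, gave 11.57, 11.55, 11.01 and 11.05 in TG_1 to TG_4, against 10.93, 11.08, 10.30 and 10.53 in WT_1 to WT_4. TG_1 and TG_2 lay above every WT array, whereas TG_3 and TG_4 lay just below WT_2, so the groups overlapped by 1 WT array. The means were 11.30 ± 0.31 in TG and 10.71 ± 0.36 in WT (SD, n = 4 each). The difference of 0.59 (SE 0.240, 95% confidence interval 0.04 to 1.13) did not pass (limma adjusted p = 0.830; unadjusted p = 0.0387; exact two-sided permutation p = 0.0857). With 4 arrays a group, that permutation test cannot give a p below 0.0286. Leaving out 1 array at a time gave 0.45 to 0.71. Leaving out TG_2 and TG_3 together gave 0.60, with a 95% confidence interval of -0.02 to 1.22 that includes 0.

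The other probe sets of Cxcl12 showed smaller differences. Probe set 1448823_at gave 9.46, 8.66, 8.44 and 8.88 in TG_1 to TG_4, against 8.94, 8.83, 8.69 and 8.68 in WT_1 to WT_4. Here TG_1 was highest but TG_2 and TG_3 were the lowest of all, and the difference was 0.08 (95% confidence interval -0.46 to 0.61), or -0.12 without TG_1 and 0.39 without TG_2 and TG_3. Probe set 1439084_at gave 5.69, 6.75, 5.70 and 5.67 in TG_1 to TG_4, against 5.66, 6.28, 5.18 and 5.36 in WT_1 to WT_4. Its difference of 0.33 (95% confidence interval -0.42 to 1.09) rested on TG_2, without which it was 0.07. Thus the difference of the brightest Cxcl12 probe set was not shared in size by the other 2.

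Cxcl14 is a chemokine made by epithelial and stromal cells. The dimmer of its probe sets had the widest TG minus WT difference of the 16 tested, 1.70. It was tested largely because its TG values were high, so its rank among the 16 carries no weight. The brighter, 1418456_a_at, gave 6.69, 6.61, 7.52 and 6.05 in TG_1 to TG_4, against 5.97, 6.79, 6.003 and 5.33 in WT_1 to WT_4. Every TG value lay above WT_1, WT_3 and WT_4, but WT_2 exceeded all TG arrays except TG_3. The means were 6.72 ± 0.61 in TG and 6.02 ± 0.60 in WT (SD, n = 4 each), with TG minus WT at 0.70 (SE 0.383, 95% confidence interval -0.18 to 1.57; limma adjusted p = 0.830). Without TG_2 and TG_3 it was 0.35.

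The second probe set of Cxcl14, 1418457_at, gave 5.76, 5.74, 6.53 and 4.80 in TG_1 to TG_4, against 4.26, 5.12, 3.39 and 3.26 in WT_1 to WT_4. The order of arrays was nearly the same, with TG_3 highest and WT_4 lowest, and only WT_2 and TG_4 crossed between the groups. Its difference was 1.70 (SE 0.488, 95% confidence interval 0.59 to 2.81; limma adjusted p = 0.830; unadjusted p = 0.00747; exact two-sided permutation p = 0.0571). Leaving out 1 array at a time gave 1.43 to 2.07. Leaving out TG_2 and TG_3 together gave 1.28, with a 95% confidence interval of -0.05 to 2.60 that includes 0. This probe set exceeded the level of 5 in 3 arrays labelled TG and 1 WT array, exactly the 4 needed. It was therefore tested largely because its TG values were high, and 3 of its WT values lie where such array values are hard to read.

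Fibroblasts are a cell type that can make both chemokines. All 8 listed fibroblast genes were tested, and their mean log2 value was 12.97, 12.57, 11.06 and 12.67 in TG_1 to TG_4, against 13.07, 12.77, 12.93 and 12.76 in WT_1 to WT_4. Cxcl14 was highest in TG_3, the array in which these markers were lowest, and their part in its values was not tested. In whole tissue, fewer cells of a type and less RNA per cell cannot be told apart.

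Cxcl16 and Cx3cl1 are the 2 chemokines that are made as membrane-anchored proteins and shed by proteases. Both Cxcl16 probe sets and 1415803_at of Cx3cl1 were spread widely within TG, with an SD of 1.37, 1.07 and 0.965. The SD of Cx3cl1 1415804_at was 0.515, against a median of 0.514 over all tested probe sets. For Cxcl16, ligand of Cxcr6, probe set 1449195_s_at gave 7.89, 9.07, 5.76 and 7.67 in TG_1 to TG_4, against 8.03, 7.57, 7.47 and 6.99 in WT_1 to WT_4. TG_2 was the highest and TG_3 the lowest of all 8 arrays, and the WT values lay between them. The difference of 0.09 (95% confidence interval -1.33 to 1.50) was far smaller than the SD of 1.37 in TG. Probe set 1418718_at repeated this order at its ends, with 7.44, 8.62, 6.05 and 7.01 in TG_1 to TG_4, against 7.25, 7.30, 6.79 and 6.11 in WT_1 to WT_4. Its difference was 0.42 (95% confidence interval -0.77 to 1.61), and without TG_2 the differences of the 2 probe sets were -0.41 and -0.03.

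Cx3cl1, also called fractalkine and known from endothelial cells, gave 7.82, 9.08, 6.80 and 7.38 with probe set 1415803_at in TG_1 to TG_4, against 8.14, 7.28, 7.53 and 7.21 in WT_1 to WT_4. TG_2 was again the highest array and TG_3 the lowest. The difference was 0.23 (95% confidence interval -0.83 to 1.28), and -0.21 without TG_2. Probe set 1415804_at gave 5.94, 6.68, 5.61 and 5.57 in TG_1 to TG_4, against 5.72, 5.56, 5.69 and 5.54 in WT_1 to WT_4, a difference of 0.32 (95% confidence interval -0.27 to 0.91). Beyond TG_2, its 8 arrays spanned little, and without TG_2 the difference was 0.08. The remaining probe sets of Cx3cl1, 1441884_x_at and 1421610_at, stayed at or below 2.68 in all arrays.

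The mean log2 value of the 7 endothelial markers, all tested, was 9.39, 9.90, 9.24 and 9.38 in TG_1 to TG_4, against 9.20, 9.48, 9.23 and 9.09 in WT_1 to WT_4. It too was highest in TG_2, where Cx3cl1 was highest, and its part in the values of Cx3cl1 was not tested. All 7 endothelial genes had a higher TG mean and 0 passed, with a median difference of 0.29, or 0.07 without TG_2, when 6 of 7 were higher.

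Cxcl1, which attracts neutrophils through Cxcr2, was the only CXC chemokine here with a lower TG mean. Probe set 1457644_s_at gave 6.84, 6.68, 7.01 and 6.99 in TG_1 to TG_4, against 6.63, 7.72, 7.28 and 7.44 in WT_1 to WT_4. The 4 TG values were close together and lay below WT_2, WT_3 and WT_4, while WT_1 was the lowest of all. The difference was -0.39 (SE 0.245, 95% confidence interval -0.95 to 0.17; limma adjusted p = 0.830), between -0.60 and -0.24 with any 1 array left out. Its probe set 1419209_at crossed the level of 5 in TG_1 and WT_2 alone, at 5.32 and 5.58, and 1441855_x_at stayed at or below 2.40 throughout.

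The CC chemokines Ccl2 and Ccl8 varied more within the groups than between them. Ccl2, the main ligand of Ccr2, gave 6.31, 5.73, 5.35 and 5.70 with probe set 1420380_at in TG_1 to TG_4, against 5.75, 6.24, 5.14 and 5.16 in WT_1 to WT_4. TG_1 and WT_2 were the high arrays, and the difference was 0.20 (95% confidence interval -0.50 to 0.90). It was 0.02 without TG_1 and 0.42 without WT_2.

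Ccl8 spanned 3.31 on the log2 scale over the 8 arrays, as did Cxcl16 with 1449195_s_at, the widest ranges of the members. Its probe set 1419684_at gave 9.18, 9.99, 6.68 and 8.06 in TG_1 to TG_4, against 8.58, 8.65, 6.991 and 6.996 in WT_1 to WT_4. TG_1 and TG_2 lay above every WT array and TG_3 below every WT array, while the WT arrays split into 2 high and 2 low values. The means were 8.48 ± 1.44 in TG and 7.80 ± 0.94 in WT (SD, n = 4 each), with TG minus WT at 0.67 (SE 0.733). It was 0.17 without TG_2 and 1.27 without TG_3. Ccl12, its neighbour in the cluster and no member here, gave 6.60, 6.71, 3.09 and 5.96 in TG_1 to TG_4, against 5.79, 4.58, 2.79 and 2.73 in WT_1 to WT_4.

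Most, but not all, listed macrophage genes had their highest value in TG_2 and their lowest in TG_3, where Ccl8 and Cxcl16 had theirs. Of 12 listed macrophage and monocyte genes 11 were tested, and their mean log2 value was 9.71, 10.08, 8.50 and 9.33 in TG_1 to TG_4, against 9.85, 9.59, 9.45 and 9.09 in WT_1 to WT_4. TG_2 was highest for 8 of the 11 genes and TG_3 lowest for 8, against 42.6% and 20.4% of all tested probe sets. TG_2 was also highest for 5 of 7 endothelial and 5 of 7 smooth muscle and pericyte genes. It was highest for 0 of 7 heart muscle and 1 of 8 fibroblast genes. TG_3 was lowest for 7 of 8 fibroblast, 3 of 7 smooth muscle and pericyte, 1 of 7 endothelial and 0 of 7 heart muscle genes. Mrc1, a mannose receptor, and Cd163, a haemoglobin scavenger receptor, were lowest in TG_2, at 8.52 and 5.05, and Cd14, a co-receptor for lipopolysaccharide, was highest in WT_3, at 11.25. Cd68, a lysosomal protein of macrophages, gave 8.33, 9.26, 6.27 and 7.06 in TG_1 to TG_4, against 8.51, 7.85, 6.73 and 6.24 in WT_1 to WT_4. Of 9598 tested genes outside the 10 members, Cd68 had the pattern most like Ccl8, with a root mean square difference of 0.304 between the centred log2 values over 8 arrays. The macrophage markers' part in these chemokine values was not tested.

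**Figure D3:**
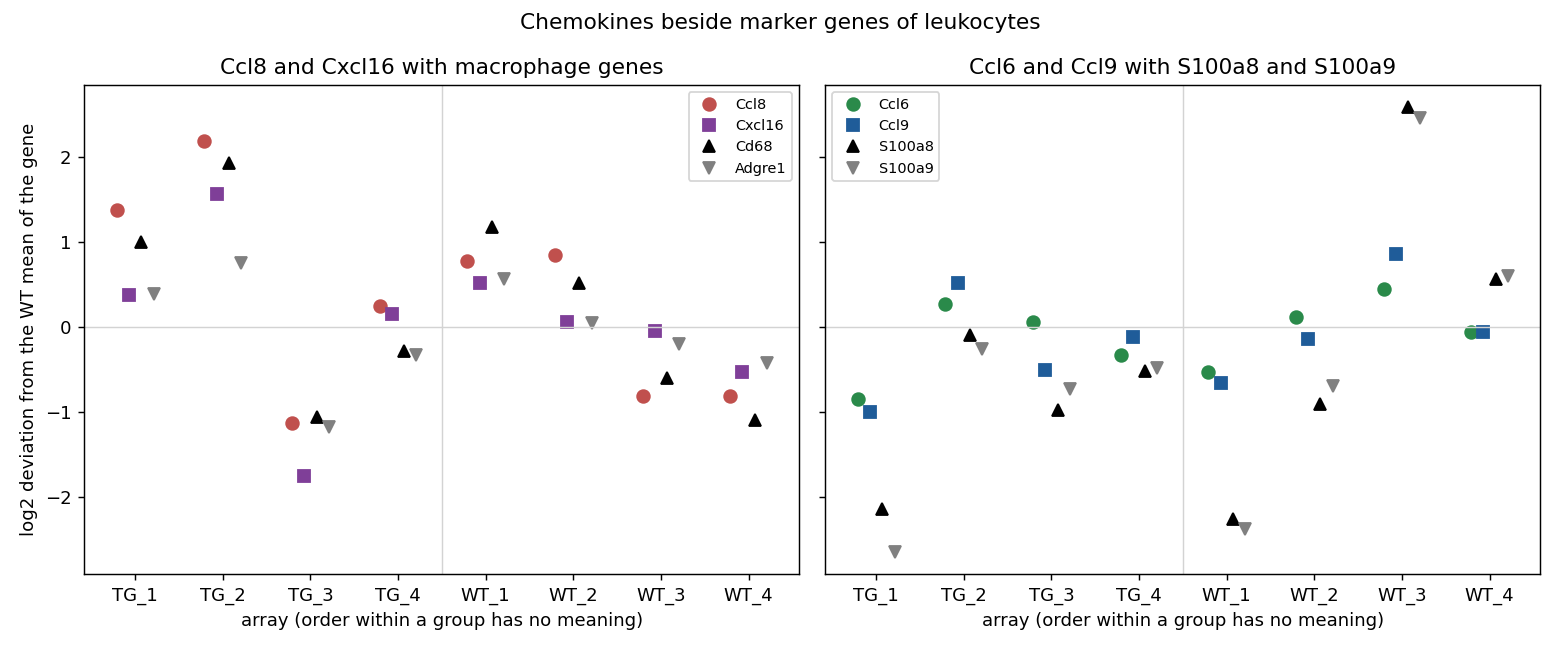
Log2 deviation of each array from the WT mean of the same gene, with the arrays labelled TG on the left and the WT arrays on the right of each panel. On the left, Ccl8 and Cxcl16 (1449195_s_at) are set beside the macrophage genes Cd68 and Adgre1, and Ccl8 lies highest in TG_2. On the right, Ccl6 and Ccl9 (their brighter probe sets) are set beside S100a8 and S100a9, and all 4 genes lie highest in WT_3. Not shown are Mrc1 and Cd163, lowest in TG_2, Cd14, highest in WT_3, and Csf3r, highest in TG_2. The dimmer probe sets of Ccl6 and Ccl9, highest in TG_2, are not shown either.

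Ccl6 and Ccl9 are 2 rodent CC chemokines known as ligands of Ccr1. Their brighter probe sets had their highest and lowest values in other arrays than Ccl8. The brighter probe set of Ccl6, 1417266_at, gave 9.06, 10.18, 9.97 and 9.58 in TG_1 to TG_4, against 9.38, 10.03, 10.36 and 9.86 in WT_1 to WT_4. That of Ccl9, 1417936_at, gave 8.63, 10.15, 9.12 and 9.51 in TG_1 to TG_4, against 8.97, 9.49, 10.49 and 9.57 in WT_1 to WT_4. Both of these were lowest in TG_1 and highest in WT_3, with TG_2 second highest and WT_1 second lowest, while the 4 arrays between stood in a different order for each. The differences were -0.21 (95% confidence interval -0.89 to 0.48) for Ccl6 and -0.28 (95% confidence interval -1.19 to 0.64) for Ccl9, and neither passed. Without TG_2 and TG_3 they were -0.59 and -0.56.

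The dimmer probe sets were highest in TG_2, with WT_3 second, and that of Ccl9 was lowest in TG_4. For Ccl6, 1420249_s_at gave 6.22, 8.46, 7.60 and 7.65 in TG_1 to TG_4, against 7.06, 7.50, 8.42 and 7.97 in WT_1 to WT_4. For Ccl9, 1448898_at gave 6.55, 8.26, 6.95 and 6.45 in TG_1 to TG_4, against 6.75, 7.53, 7.67 and 6.84 in WT_1 to WT_4. Their differences were -0.25 (95% confidence interval -1.35 to 0.85) and -0.14 (95% confidence interval -1.11 to 0.82). Without TG_2 and TG_3 they were -0.80 and -0.70, and 1448898_at was then the only member probe set at an unadjusted limma p under 0.05 (0.0492; adjusted p = 1), against 264 of 16017 in all. Without TG_1 the difference of 1417266_at was 0.0027, that of 1420249_s_at 0.17 and that of 1448898_at 0.02, and without WT_3 both Ccl9 probe sets differed by 0.01.

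S100a8 and S100a9, calcium-binding proteins of neutrophils and monocytes, are 2 of the 3 tested genes of the neutrophil list. S100a8 gave 5.28, 7.33, 6.45 and 6.90 in TG_1 to TG_4, against 5.17, 6.52, 10.001 and 7.99 in WT_1 to WT_4. S100a9 gave 4.82, 7.20, 6.73 and 6.98 in TG_1 to TG_4, against 5.09, 6.76, 9.91 and 8.06 in WT_1 to WT_4. Both were highest in WT_3 and lowest in TG_1 and WT_1, as were the brighter probe sets of Ccl6 and Ccl9. The dimmer probe sets were highest in TG_2, and of these only that of Ccl6 was lowest in TG_1 and WT_1. The third tested gene of the list, Csf3r, a growth factor receptor of neutrophils, was instead highest in TG_2, at 5.51. Its lowest value was 4.83, in TG_3, with 5.33 in WT_3. Of 8 listed neutrophil genes these 3 were tested, with a mean log2 value of 5.13 to 6.68 in TG and 5.25 to 8.42 in WT, and the granule genes Ngp, Ltf and Camp reached at most 2.39 in any array. Of 10 listed lymphocyte genes only Cd4 was tested, and Cd3d, Cd3e, Cd3g, Cd79a and Nkg7 stayed at or below 2.65. Their part in the values of Ccl6 and Ccl9 was not tested.

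The spread within each group was set beside that of all tested probe sets. Over the 16 tested member probe sets the median SD was 0.625 in TG and 0.475 in WT, against 0.514 in TG and 0.200 in WT over all 16017. In WT, 14 of the 16 (87.5%) had an SD above the upper quartile of all tested probe sets, 0.305. The exceptions were 1448823_at of Cxcl12 and 1415804_at of Cx3cl1. Among TG arrays, TG_2 held the highest value for 8 of the 16, against 42.6% of all tested probe sets, and the lowest for 0, against 34.3%. TG_3 held the lowest value for 5 of the 16, against 20.4% of all.

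**Figure D4:**
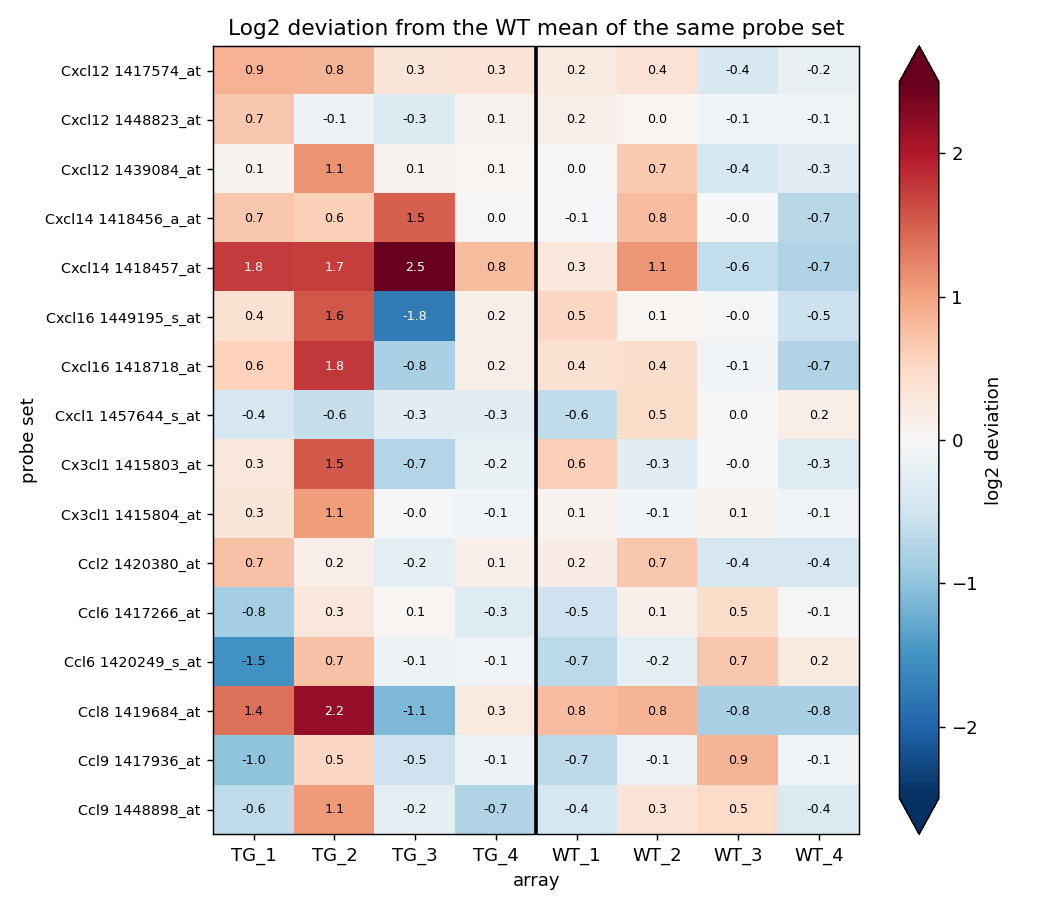
Log2 deviation of each array from the WT mean of the same probe set, for the 16 tested chemokine probe sets (rows), with the arrays labelled TG left of the line and the WT arrays right of it. Red is above and blue below the WT mean. Ccl8 and Cxcl16 are reddest in TG_2 and blue in TG_3, while Ccl6 and Ccl9 are bluest in TG_1, except 1448898_at of Ccl9, which was lowest in TG_4.

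The receptors of these chemokines were compared in the same way. Of 23 listed chemokine receptors 21 had an annotated probe set and 7 were tested, of which 3 had a higher and 4 a lower TG mean, with a median difference of -0.01, and 0 passed. Without TG_3, 5 were higher and 2 lower. Ackr3, the scavenging receptor of Cxcl12, gave 11.995, 12.02, 11.80 and 11.92 in TG_1 to TG_4, against 11.72, 11.67, 11.12 and 11.61 in WT_1 to WT_4. All 4 TG values lay above all 4 WT values, with a difference of 0.40 (SE 0.184; limma adjusted p = 0.830; unadjusted p = 0.0579). The groups stayed apart for 2.11% of all tested probe sets, and with TG higher for 1.56%. Cxcr4, the signalling receptor of Cxcl12, differed by -0.25, with 4.85 to 6.12 in TG and 4.84 to 6.64 in WT.

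Cx3cr1, the receptor of Cx3cl1 on monocytes and macrophages, had 5.95 to 7.50 in TG and 5.81 to 7.54 in WT, a difference of 0.28. Ccr2 differed by -0.05 and Ccr1 by -0.14, with all their values at or below 5.97. Ackr2, a decoy receptor of inflammatory CC chemokines, differed by 0.39. Cxcr2 stayed at or below 2.79 in all arrays, and Cxcr6 reached 5.94 in its highest array without meeting the level for testing.

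Of 28 other listed chemokines 25 had an annotated probe set and 3 were tested, Ccl12, Ccl27a and Pf4, with differences of 1.62, 0.36 and 0.17 and none past the threshold. Ccl12 exceeded the level of 5 in 3 arrays labelled TG and 1 WT array, exactly the 4 needed, so it was tested largely because its TG values were high. Cxcl2, Cxcl9, Cxcl10 and Ccl3 stayed below 5 in every array. The proteases that cleave or shed chemokines had a lower TG mean in 5 of 5 tested genes of 11 listed, with a median of -0.30 and 0 past the threshold. Without TG_3 it was 3 of 5, with a median of -0.011. Adam10, a sheddase of Cxcl16 and Cx3cl1, gave 10.75, 8.93, 9.93 and 10.93 in TG_1 to TG_4, against 10.82, 10.67, 10.93 and 10.82 in WT_1 to WT_4. Adam10 was lowest in TG_2, the array with the highest Cxcl16 and Cx3cl1. TG_2 held the lowest value of 34.3% and the highest of 42.6% of all tested probe sets. A relation of Adam10 to these chemokines was not tested. Adam17 and Mmp14 differed by -0.25 and -0.34.

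Of 23 listed genes of inflammatory cytokines and NF-kB signalling 15 were tested, 7 with a higher and 8 with a lower TG mean, with a median of -0.02 and 0 past the threshold. Without TG_2, 0 were higher and 15 lower, with a median of -0.26, and without TG_3, 9 were higher and 6 lower. The cytokine genes Tnf and Il6 stayed at or below 3.93. Hif1a, Nfkbiz and Tlr4, the 3 with the smallest p, differed by -0.72, -0.59 and -1.04, and Tlr4 was 6.22 in TG_2 and at least 8.59 in the other 7 arrays. Of 13 listed partners of receptor signalling 10 were tested, 5 higher and 5 lower (2 and 8 without TG_2), with 0 past the threshold, and Grk3, Gnai3 and Gnai2 differed by -0.35, -0.85 and -0.19. Gnai3, a G protein subunit that couples to chemokine receptors, was 6.90 in TG_2 and at least 9.32 in the other 7 arrays.

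The remaining marker lists also had 0 genes past the threshold. The smooth muscle and pericyte list had 3 of 7 genes higher in TG, with a median of -0.03, or 4 of 7 and 0.20 without TG_3. The fibroblast list had 1 of 8, with a median of -0.51, or -0.10 without TG_3. The macrophage list had 5 of 11, with a median of -0.03, or 1 of 11 and -0.27 without TG_2 and 8 of 11 and 0.33 without TG_3. The neutrophil list had 0 of 3, with a median of -0.93, or -0.14 without WT_3. Heart muscle genes had a median of -0.01, with 3 of 7 higher, or 7 of 7 without TG_2. The only tested platelet and erythroid gene, Alas2, differed by 0.27, or -0.055 without TG_2.

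The genes with the pattern most like each of the other members were looked for by the same measure over 8 arrays, with the members themselves left out of the search. Cxcl16 was nearest to P2ry6 and Limd2, at root mean square differences of 0.143 and 0.176. Cxcl12 was nearest to Irgm1 and Rgma, at 0.134 and 0.138, and Cxcl14 to Slc25a26 and Tmem186, at 0.240 and 0.263. Ccl6 was nearest to Cebpb and Aph1a, at 0.175 and 0.179, and Ccl9 to Errfi1 and Atg101, at 0.191 and 0.198. For Cxcl1 the nearest were Sec14l3 and H2-Ea, at 0.120 and 0.142, for Cx3cl1 Sntb2 and Gipc1, at 0.146 and 0.148, and for Ccl2 C1s1 and Timeless, at 0.192 and 0.200. The second gene for Ccl8, after Cd68, was Ifi47, at 0.418.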

How the data were processed

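Ventricular total RNA of each mouse was hybridised to its own array, per the labels' protocols. The deposited values are on the log2 scale and, according to the submitters' processing notes, come from GCRMA (version not given in the sources used here). GCRMA draws absent signals towards one low level, so differences near it are hard to read. Of 45101 probe sets, 932 had several gene symbols and 9211 no annotation row, and these and control probe sets were left out.

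Groups were taken from the sample titles. Nothing says how separate the mice were beyond their titles, so p-values measure the spread between these samples. Probe sets above log2 5 in at least 4 of the 8 arrays were fitted together, TG minus WT, by lmFit and eBayes of limma 3.58.1 (R 4.3.3), with Benjamini-Hochberg adjustment over all 16017 at 0.05. The code was tested on simulated data. Lists used the probe set of each gene with the highest mean. Precision is limited by the number of arrays, which have no read depth. The genes named were all members with every probe set, a fixed set of receptors and markers, the 3 smallest p of each list, and the 2 genes nearest to each member in centred log2 values. Il6, Tnf, Cxcl2, Cxcl9, Cxcl10, Ccl3 and other untested list genes were named after their values were seen. The members and lists were chosen with earlier results of these data known. Alternatives changed the filter, the scaling, the model, the probe set rule and the threshold, and left out arrays; leaving arrays out of the gene lists was added after seeing the data.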

Additional observations from a re-analysis of the deposited data

Results flagged for a closer look

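In 42 groups of 4 arrays (21 probe sets in TG and in WT), 3 held an array whose gap to its nearest neighbour, divided by the range of the group, exceeded Dixon's critical value of 0.829. Chance marks about 1 in 20 groups. Cxcl12 probe set 1439084_at was 6.75 in TG_2, with the other 3 TG values at 5.67 to 5.70 (ratio 0.973). The other 2 were probe sets below log2 5 in all arrays, where the absolute gaps are small. Cx3cl1 probe set 1421610_at was 2.22 in TG_2, next to 2.17 (ratio 0.867), and Cxcl1 probe set 1441855_x_at was 2.40 in TG_4, next to 2.26 (ratio 0.966).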

How the results depend on the processing

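The count of chemokine probe sets past the threshold and the count over all probe sets were 0 under every alternative run with limma, among them no filter, a level of 7, a threshold of 0.1 and each array left out. The members' median difference was 0.08 to 0.34 under the alternatives other than single arrays left out, with 0.34 under array weights, and 0.02 to 0.42 with 1 array left out. With array weights, which gave TG_2 a weight of 0.0531, the adjusted p of the members was lowest, 0.301, and the differences that moved by over 1.5 times were -1.38 for Ccl6 1420249_s_at, -0.76 for Ccl6 1417266_at, -0.92 for Ccl9 1417936_at, -0.58 for Ccl9 1448898_at, 1.39 for Ccl8, 0.74 for Ccl2, 0.58 for Cxcl12 1448823_at, 0.18 for Cxcl12 1439084_at, 0.40 for Cxcl16 1449195_s_at and 0.66 for Cxcl16 1418718_at. Signs turned for 8 probe sets, in each case when 1 array was left out. The ranges were -0.21 to 0.55 for Cx3cl1 1415803_at, -0.38 to 0.0027 for Ccl6 1417266_at, -0.58 to 0.17 for Ccl6 1420249_s_at, -0.54 to 0.0087 for Ccl9 1417936_at, -0.55 to 0.057 for Ccl9 1448898_at, -0.029 to 0.83 for Cxcl16 1418718_at, -0.41 to 0.70 for Cxcl16 1449195_s_at and -0.12 to 0.22 for Cxcl12 1448823_at. The cause of these turns was not tested. Whether the replicate numbers pair the arrays is not known. Deviations of same-numbered arrays correlated at 0.298, 0.003, -0.343 and 0.221, and those of differently numbered arrays at -0.363 to 0.321. With TG_2 and TG_3 standing apart, such correlations cannot decide it. The fit with a replicate block passed 0 probe sets, with a members' median of 0.21, and the adjusted p of the members was 0.856 or more. The level of 7 left 10 member probe sets, and 1 probe set per gene left 9. Precision is limited by 4 arrays a group: the median 95% confidence interval of a member reached 0.895 to either side.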
